A study of Saccharomyces cerevisiae with 27 samples.

Results

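The array strain LCY002 was compared with its parent BY4741 during growth on ethanol and glycerol. The members were the 3 libraries whose titles name LCY002 on this carbon source and the 3 that name BY4741 on it, 6 of the 27 libraries in the series. LCY002 holds a centromeric plasmid with HIS3 and an array of 40 genes for galactose use, glycolysis and ergosterol synthesis, in the BY4741 background. BY4741 is a haploid Saccharomyces cerevisiae strain with the alleles his3Δ1, leu2Δ0, met15Δ0 and ura3Δ0, which LCY002 carries on its chromosomes too. LCY001, the same background with an array-free centromeric HIS3 plasmid, served as a second strain for comparison, since LCY002 and BY4741 differ by the plasmid and by HIS3 as well as by the 40 genes. Each library came from an individual colony. Per the labels' protocols all strains passed through overnight medium without histidine, were diluted to an OD600 of 0.1 with ethanol/glycerol as the carbon source, and were collected at an OD600 of about 1.0. The sources used here do not give whether those last cultures held histidine. Nothing in the labels says how many copies of either plasmid a cell held, and chromosomal and plasmid copies of an array gene share 1 count.

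Yeast cells that grow on ethanol and glycerol obtain energy by respiration. They turn acetyl-CoA into sugar phosphates through the glyoxylate cycle and gluconeogenesis, which runs against glycolysis. The galactose genes are switched on by Gal4, which the Gal80 protein holds inactive unless Gal3 has bound galactose. Ergosterol, the main sterol of yeast membranes, is made from acetyl-CoA by the mevalonate and ERG enzymes, and several of its last steps use oxygen and iron. Outside the array, a few well-known regulators are tied to short DNA elements: Gcn4 to amino acid and purine synthesis, the GATA factors to ammonium and amino acid uptake, Aft1 to iron uptake, and the PAC element to ribosome production.

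To show the DNA beside the values that follow, stretches of 300 bases, from 350 to 51 bases before the annotated start of the gene, are printed for 7 genes that stand for the main groups. They were read from the RefSeq R64 reference on the strand of the gene, 5′ to 3′, and capitals mark matches to the element named, on either strand. The first pair holds the Gcn4 core TGACTC, 3 matches before HIS4 of histidine synthesis (build R64, chrIII:68384-68683, minus strand) and 2 before ADE17 of purine synthesis (chrXIII:509331-509630, minus strand).
HIS4: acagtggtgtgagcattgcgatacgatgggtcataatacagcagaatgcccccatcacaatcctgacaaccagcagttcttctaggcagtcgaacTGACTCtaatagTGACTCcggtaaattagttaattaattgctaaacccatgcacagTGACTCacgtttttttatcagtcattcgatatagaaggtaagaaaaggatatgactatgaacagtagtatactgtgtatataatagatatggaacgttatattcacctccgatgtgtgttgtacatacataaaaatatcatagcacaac
ADE17: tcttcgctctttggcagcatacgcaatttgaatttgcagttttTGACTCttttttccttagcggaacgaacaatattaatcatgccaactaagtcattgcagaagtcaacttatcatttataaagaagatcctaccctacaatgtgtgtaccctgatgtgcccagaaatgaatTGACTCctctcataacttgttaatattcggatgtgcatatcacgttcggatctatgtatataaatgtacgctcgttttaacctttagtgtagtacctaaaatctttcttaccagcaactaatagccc
The next pair holds the GATA element GATAAG, 3 matches each. They lie before the ammonium permease gene MEP2 (chrXIV:357103-357402, plus strand), where 2 matches overlap each other, and before DAL80, which encodes a GATA repressor (chrXI:506548-506847, plus strand).
MEP2: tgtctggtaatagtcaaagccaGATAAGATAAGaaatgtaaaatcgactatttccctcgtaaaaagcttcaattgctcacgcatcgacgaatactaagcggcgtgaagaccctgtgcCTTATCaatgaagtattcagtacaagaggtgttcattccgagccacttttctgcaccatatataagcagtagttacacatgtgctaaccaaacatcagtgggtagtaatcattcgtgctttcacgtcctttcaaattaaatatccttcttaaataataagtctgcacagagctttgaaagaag
DAL80: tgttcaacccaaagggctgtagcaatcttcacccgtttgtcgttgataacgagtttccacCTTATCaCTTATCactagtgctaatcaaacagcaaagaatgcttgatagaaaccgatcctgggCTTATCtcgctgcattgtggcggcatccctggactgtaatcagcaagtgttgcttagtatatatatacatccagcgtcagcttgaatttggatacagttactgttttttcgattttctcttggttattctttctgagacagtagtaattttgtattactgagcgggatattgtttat
FIT2, which encodes a cell wall protein that retains siderophore iron (chrXV:1059181-1059480, plus strand), has 4 matches to the Aft1 core TGCACCC. The array gene GAL80 (chrXIII:171244-171543, plus strand) has 1 match to the Gal4 site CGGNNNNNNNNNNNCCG, which occurs in 1.74% of all windows. SSF1 of ribosome assembly (chrVIII:228985-229284, plus strand) has 2 overlapping matches to the PAC core GATGAG.
FIT2: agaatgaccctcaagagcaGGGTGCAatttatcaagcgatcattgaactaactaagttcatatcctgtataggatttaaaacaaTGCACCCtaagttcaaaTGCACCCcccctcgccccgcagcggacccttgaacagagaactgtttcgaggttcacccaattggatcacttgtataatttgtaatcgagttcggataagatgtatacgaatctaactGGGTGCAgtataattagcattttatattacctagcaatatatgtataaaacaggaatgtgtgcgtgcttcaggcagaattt
GAL80: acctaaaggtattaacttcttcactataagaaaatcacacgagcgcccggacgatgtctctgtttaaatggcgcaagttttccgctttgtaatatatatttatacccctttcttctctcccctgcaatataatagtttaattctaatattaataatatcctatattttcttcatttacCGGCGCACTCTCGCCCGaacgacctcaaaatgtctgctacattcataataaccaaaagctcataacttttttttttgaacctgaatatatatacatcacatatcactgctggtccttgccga
SSF1: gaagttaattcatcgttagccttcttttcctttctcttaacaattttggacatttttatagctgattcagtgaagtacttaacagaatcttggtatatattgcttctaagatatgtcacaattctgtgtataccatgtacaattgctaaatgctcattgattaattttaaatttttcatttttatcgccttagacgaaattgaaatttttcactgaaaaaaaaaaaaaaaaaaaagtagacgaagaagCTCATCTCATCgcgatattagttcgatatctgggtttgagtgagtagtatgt
Over the 5681 windows of tested genes, TGACTC occurred in 8.26%, GATAAG in 14.5%, TGCACCC in 1.43% and GATGAG in 19.6%. In these 7 windows no match overlapped a match to a different motif of those searched. A match is a description of the letters and not a measured binding site.

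The 6 libraries held 14502845 to 15201978 expected counts each, so that 3 counts equal 0.197 to 0.207 CPM (counts scaled to a library total of 1000000). That limit covers counting error only. The first principal component of the 6 libraries, with 78.1% of the variance, separated the strains, at 17.9 to 18.3 for LCY002 and at -18.7 to -17.6 for BY4741. BY4741 replicate 3 stood apart on the second component, which held 8.26%, at -9.48 against 4.19 and 5.47 for the other BY4741 libraries. A chi-square over genes gave 19.13 and 16.26 per degree of freedom for its pairs with the other BY4741 libraries, against 8.11 for the remaining pair and 3.46 to 9.08 within LCY002.

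HIS3, an enzyme gene of histidine synthesis, had 9767, 10116 and 9621 counts in LCY002 against 723, 779 and 752 counts in BY4741, whose his3Δ1 allele keeps part of the gene. All 3 LCY002 libraries lay far above all 3 BY4741 libraries, with a log2 fold change of 3.80 ± 0.06 (SE, adjusted p = 5.5e-26). LCY001 held 16790, 16881 and 15693 HIS3 counts, above LCY002, and the direct difference of LCY002 from LCY001 was -0.69 ± 0.05 (SE, adjusted p = 5.71e-11). LEU2, URA3 and MET17 had 0 counts in all 6 libraries. BY4741 is known as an a-type strain, yet MFA1 and MFA2, the a-factor pheromone genes, were listed at 0 CPM in all 6 libraries, while the pheromone receptor gene STE2 had 218, 201 and 202 CPM in LCY002 against 359, 327 and 346 CPM in BY4741. STE2 was lower in every LCY002 library (log2 fold change -0.73, SE 0.05, adjusted p = 3.48e-12), as were STE6, BAR1 and AGA2, whereas ASG7 was higher by 0.43. Over all genes 31.5% were lower in LCY002 and 28.2% higher. Summed over the 7 a-cell genes the level was 526 to 566 CPM in LCY002 and 811 to 880 CPM in BY4741. In LCY001 4 of the 5 tested a-cell genes were lower than in BY4741 too (median -0.38), where 4.92% of all genes were. LCY002 against LCY001 had a median of -0.01, with 1 higher and 2 lower (29.4% and 30.4% of all genes). The 4 alpha-cell genes summed to 78.1 to 87.6 CPM in LCY002 and 72.0 to 75.3 CPM in BY4741. Of them STE3, the other receptor gene, was called higher (0.75) and the other 3 were not called, near the 28.2% of all genes. What part these markers or BY4741 replicate 3 have in other results was not tested, and in bulk libraries fewer cells of a kind and less RNA per cell cannot be told apart.

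Across the 5692 genes tested, 3397 differed between LCY002 and BY4741 at an adjusted p below 0.05 (59.7%), 1604 higher (28.2%) and 1793 lower (31.5%). With total counts as the scale the calls divided otherwise, into 1261 higher and 2358 lower, so that 34.8% of calls were higher against 47.2% with TMM scaling. Most differences were small. Higher levels by at least 2 fold were called for 205 genes (3.6%) and lower levels for 16 (0.281%), and the 5th and 95th percentiles of the log2 fold change were -0.45 and 0.85, about a median of -0.02. LCY001 differed from the same BY4741 libraries at 655 genes (11.5%), 375 higher (6.59%) and 280 lower (4.92%). Between LCY002 and LCY001 3406 genes differed (59.8%), 1674 higher (29.4%) and 1732 lower (30.4%). Both comparisons with BY4741 share its 3 libraries, so their values are set side by side, and LCY002 is set against LCY001 by a test of its own. Differences are log2 fold changes throughout, and ± after one gives its SE.

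Of the 40 array genes 39 were higher in LCY002 than in BY4741 and 1, CDC19, was not called, where 28.2% of all genes were called higher. For these 39 the libraries of the strains did not overlap, as for 63.6% of all genes. The median log2 fold change of the 40 was 1.25, or 2.38 fold (SD 0.037 over the medians of the 3 LCY002 libraries). Together the array genes took 8.23%, 8.27% and 8.78% of all counts in the LCY002 libraries against 4.68%, 4.82% and 4.66% in the BY4741 libraries. Every LCY002 library lay above every BY4741 library, a ratio of 1.79, and the two-sided exact permutation test gave p = 0.1, the smallest that 3 libraries against 3 allow. LCY001 stood with BY4741 at 4.64% ± 0.059 (SD, n = 3). Among the 40 genes 2 were higher and 2 lower in LCY001 (median -0.02), near the 6.59% and 4.92% of all genes. In the direct comparison with LCY001 39 array genes were higher in LCY002, with a median of 1.30, where 29.4% of all genes were higher.

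The 9 galactose genes had the highest module median, a log2 fold change of 1.79. All 9 rose and all 9 had 95% intervals wholly above a doubling. GAL80, the inhibitor gene, had 463, 483 and 469.7 CPM in LCY002 against 100.3, 101 and 92.8 CPM in BY4741, with no overlap and a change of 2.27 ± 0.04 (SE, adjusted p = 1.35e-24). GAL4, the activator gene, had 241, 255 and 259.9 CPM in LCY002 against 107, 108 and 97.9 CPM in BY4741 and rose less, by 1.27 ± 0.06. In folds GAL80 stood at 4.82 times and GAL4 at 2.42 times its BY4741 level. GAL3, the sensor gene, rose by 1.63 ± 0.07. GAL1, the galactokinase gene, had 48.6, 43.2 and 44.3 CPM in LCY002 against 14.7, 9.38 and 11.5 CPM in BY4741, a rise of 1.93 ± 0.10. GAL7, the uridylyltransferase gene, had 15.8, 17.8 and 17.6 CPM in LCY002 against 4.26, 2.44 and 3.12 CPM in BY4741 (2.38 ± 0.16). GAL10, the epimerase gene, rose by 1.79 ± 0.08. GAL2, the permease gene, had 16.5, 14.3 and 14.4 CPM in LCY002 against 0.741, 1.50 and 1.19 CPM in BY4741, and its 3.72 ± 0.44 carries the widest interval on the array. The phosphoglucomutase genes PGM1 and PGM2, which also serve glycogen and trehalose, rose by 1.23 ± 0.04 and 1.39 ± 0.17. GAL1, GAL10 and GAL4 overlap annotated antisense transcripts and GAL2 shares reads with related genes, so these 4 values are uncertain. For these 9 genes no library of LCY002 overlapped one of BY4741, as for 63.6% of all genes. The Gal4 site occurred in 5 of their windows.

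The 17 glycolytic genes had a median of 0.96, and 16 of them rose. The 3 highest rises were those of PYK2, GLK1 and HXK1. HXK2, also a hexokinase gene, rose by 1.01 ± 0.12, with a 95% interval that holds a doubling. GLK1, the glucokinase gene, had 3749, 3833 and 4166 CPM in LCY002 against 1026, 904 and 850.3 CPM in BY4741 (2.08 ± 0.10), but it overlaps the open reading frame YCL042W and is uncertain. HXK1, a hexokinase gene, had 2240, 2346 and 2615 CPM in LCY002 against 673, 636 and 463 CPM in BY4741 (2.02 ± 0.18). PYK2, the minor pyruvate kinase gene, had 257, 259.7 and 284 CPM in LCY002 against 65.5, 60.8 and 57.6 CPM in BY4741 (log2 fold change 2.12, SE 0.07, adjusted p = 2.05e-18). GLK1, HXK1 and PYK2 lay above a doubling, with no overlap between the strains, as for 63.6% of all genes. CDC19, the main pyruvate kinase gene, had 3968, 3830 and 3882 CPM in LCY002 against 3436, 3827 and 3909 CPM in BY4741, and the libraries overlapped. Its change of 0.06 ± 0.04 (SE, adjusted p = 0.217) has a 95% interval of -0.03 to 0.16, and with total counts as the scale its sign turned to -0.002. PFK2, TDH2, TDH3, PGK1 and GPM1 rose but stayed below a doubling, at 0.52 to 0.76. The most abundant messages of the array were those of TDH3, a glyceraldehyde phosphate dehydrogenase gene, and FBA1, the aldolase gene. TDH3 rose to 15865, 15853 and 16535 TPM in LCY002, against 10105, 10003 and 9670 TPM in BY4741 (log2 fold change of the counts 0.74 ± 0.04). FBA1 reached 13438, 13418 and 14574 TPM in LCY002, against 7500, 7466 and 7461 TPM in BY4741 (0.93 ± 0.04), close to a doubling. Reads of TDH1, TDH2, TDH3, ENO1 and ENO2 can be shared with their close copies, so the division within each family is uncertain.

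All 14 ergosterol genes of the array rose, with a median of 1.44, 9 above a doubling, 3 whose intervals hold it and 2 below it. ERG7, the lanosterol synthase gene, had 1054, 1056 and 1052 CPM in LCY002 against 143, 144 and 151 CPM in BY4741. Its change of 2.85 ± 0.04 (SE, adjusted p = 4.7e-27), 7.23 fold, was the largest among the ergosterol genes. ERG24, which encodes a sterol reductase of the late pathway, had 233, 245 and 238 CPM in LCY002 against 56.0, 56.1 and 53.8 CPM in BY4741 (2.11 ± 0.04). ERG6, the sterol methyltransferase gene, rose by 1.80 ± 0.06 and ERG27, the keto reductase gene, by 1.77 ± 0.05. Among the first steps carried by the array, ERG20, which encodes farnesyl pyrophosphate synthase, rose by 0.96 ± 0.04 and ERG9, the squalene synthase gene, by 1.59 ± 0.05. ERG1, the squalene epoxidase gene, rose by 1.02 ± 0.04. ERG11, the lanosterol demethylase gene, had 714, 686 and 699 CPM in LCY002 against 464, 480.3 and 518 CPM in BY4741 (0.52 ± 0.04). ERG25, the methyl sterol oxidase gene, had 286, 278 and 267 CPM in LCY002 against 207, 208 and 230.2 CPM in BY4741 (log2 fold change 0.36, SE 0.06, adjusted p = 2.9e-06). Both lay below a doubling, and no LCY002 library overlapped a BY4741 library for either gene, as for 63.6% of all genes. The 12 sterol genes absent from the array had a median of -0.05, with 2 higher and 3 lower, against 28.2% and 31.5% of all genes. With total counts as the scale 1 was higher and 7 were lower. The median was -0.02 without BY4741 replicate 3, and 1 gene was higher without BY4741 replicate 2 or without LCY002 replicate 1 or 3. HMG2, a reductase gene of the mevalonate branch, was higher by 0.34 ± 0.04 and CYB5, which encodes an electron donor to ERG enzymes, was lower (-0.41 ± 0.10). Among sterol regulators and importers 6 of 10 were higher and 1 lower, against 28.2% and 31.5% of all genes. AUS1, a sterol importer gene, led them with 42.3, 44.6 and 41.4 CPM in LCY002 against 21.6, 23.7 and 22.2 CPM in BY4741 (0.93 ± 0.06, with 0.39 in LCY001). The sterol element TCGTATA, which 4.52% of all windows hold, occurred before 2 of the 14 array genes.

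**Figure D1:**
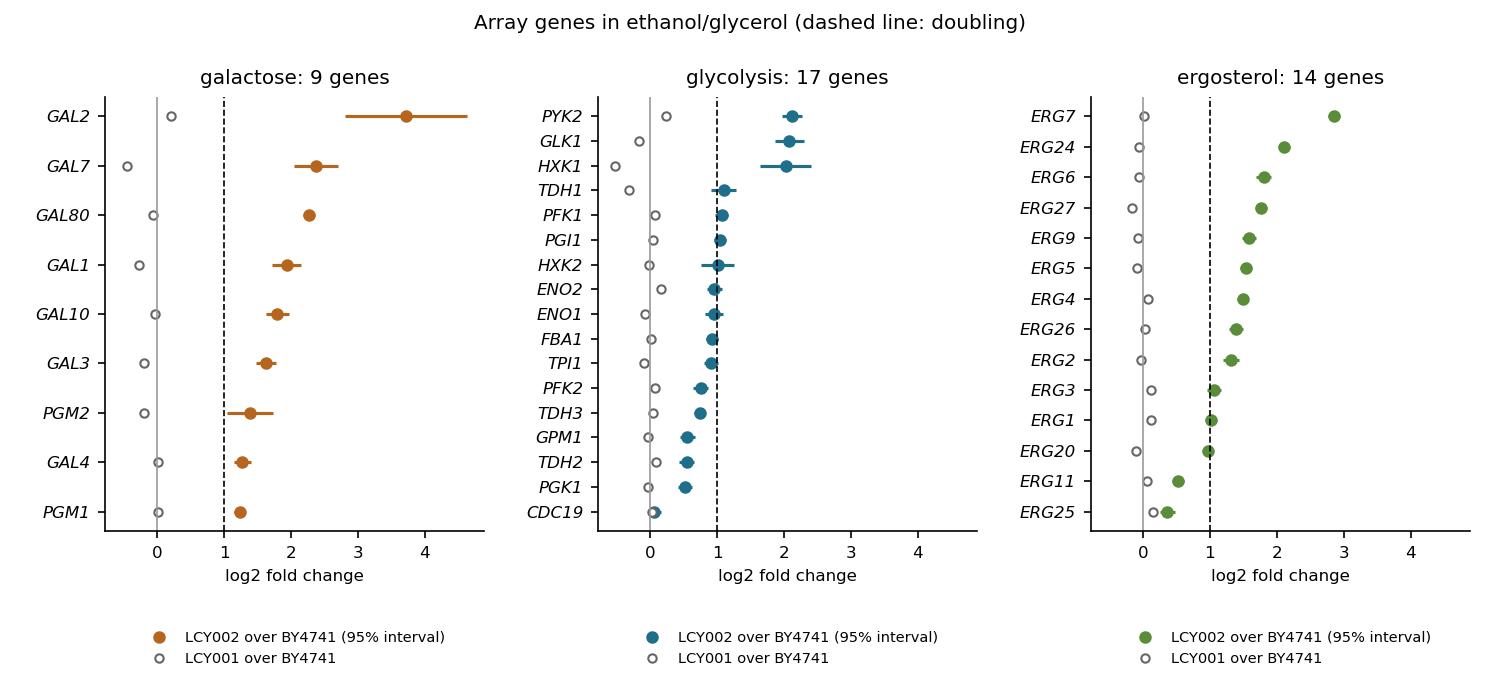
Log2 fold change of each array gene in ethanol/glycerol, LCY002 over BY4741 (filled points with 95% intervals) and LCY001 over BY4741 (open points), in 1 panel per module, with a dashed line at a doubling. All 9 galactose genes lie right of the doubling, CDC19 lies at 0.06, and the open points run between -0.52 (HXK1) and 0.23 (PYK2) with a median of -0.02.

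Array genes with low levels in BY4741 had the larger fold changes. The 13 array genes under 100 TPM there had a median log2 fold change of 1.93, and all 13 lay above a doubling. The 17 genes between 100 and 1000 TPM had a median of 1.07, with 8 above, 6 holding and 3 below. The 10 genes over 1000 TPM had a median of 0.82, with 0 above, 5 holding and 5 below. Across the 40 genes Spearman's rho of log2 fold change with BY4741 TPM was -0.73, and it was -0.79 among the 14 ergosterol genes, -0.67 among the 9 galactose genes and -0.56 among the 17 glycolytic genes. The BY4741 libraries enter both measures, and genes are not independent replicates, so these are descriptions. With position along the array, as the genotype label orders the genes, rho was -0.21. In TPM the gains ran from 7.93 for GAL2 to 6334 for FBA1 and did not simply follow the BY4741 level: GLK1, at 633 TPM in BY4741, gained 1961 TPM, whereas CDC19, at 2537 TPM, gained 41.0 TPM.

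The chromosomal neighbours of the array genes were read next. The 64 tested genes next to an array gene had a median of 0.06, with 21 higher and 14 lower, where 28.2% and 31.5% of all genes were called. Those named here were chosen after their values were seen. PTH1, 244 bases upstream of ERG9, averaged 32.2 CPM in LCY002 and 12.1 CPM in BY4741 (log2 fold change 1.41 ± 0.10, adjusted p = 5.26e-12), with -0.12 in LCY001. MIM2, 221 bases upstream of ERG27, averaged 18.0 CPM in LCY002 and 7.89 CPM in BY4741 (1.19 ± 0.22, adjusted p = 9.42e-05), with -0.05 in LCY001. YCL042W, which overlaps GLK1, changed by 3.51 ± 0.13 and cannot be separated from it here. Without the array genes the 16 chromosomes had medians between -0.05 and 0.03.

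Called genes named by rule from the lists that follow were required to show no overlap between the strains, so separation of their libraries is a description and supports nothing further. Apart from the array and HIS3, the list with the highest median was that of biotin synthesis and uptake, where 6 of 6 genes were higher with a median of 3.59, against 28.2% and a median of -0.02 over all genes. BIO2, the biotin synthase gene, had 670.4, 588 and 637 CPM in LCY002 against 43.9, 45.0 and 50.6 CPM in BY4741 (log2 fold change 3.76, SE 0.16, adjusted p = 8.97e-14). BIO4 and BIO3, which encode the preceding steps, rose by 4.33 ± 0.23 and 4.30 ± 0.26. VHT1, the biotin importer gene, had 675, 652 and 647 CPM in LCY002 against 91.4, 94.0 and 98.8 CPM in BY4741. For these 4 genes every LCY002 library lay far above every BY4741 library. BPL1, which attaches biotin to its target enzymes, was higher by 0.60. In LCY001 the 6 biotin genes were higher than in BY4741 as well, where 6.59% of all genes were (median 2.75). The direct comparison still placed all 6 higher in LCY002 than in LCY001, by a median of 0.73, against 29.4% of all genes. BIO2 differed there by 0.69 ± 0.14 and BIO5, a transporter gene for a biotin precursor, by 1.53 ± 0.16.

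**Figure D2:**
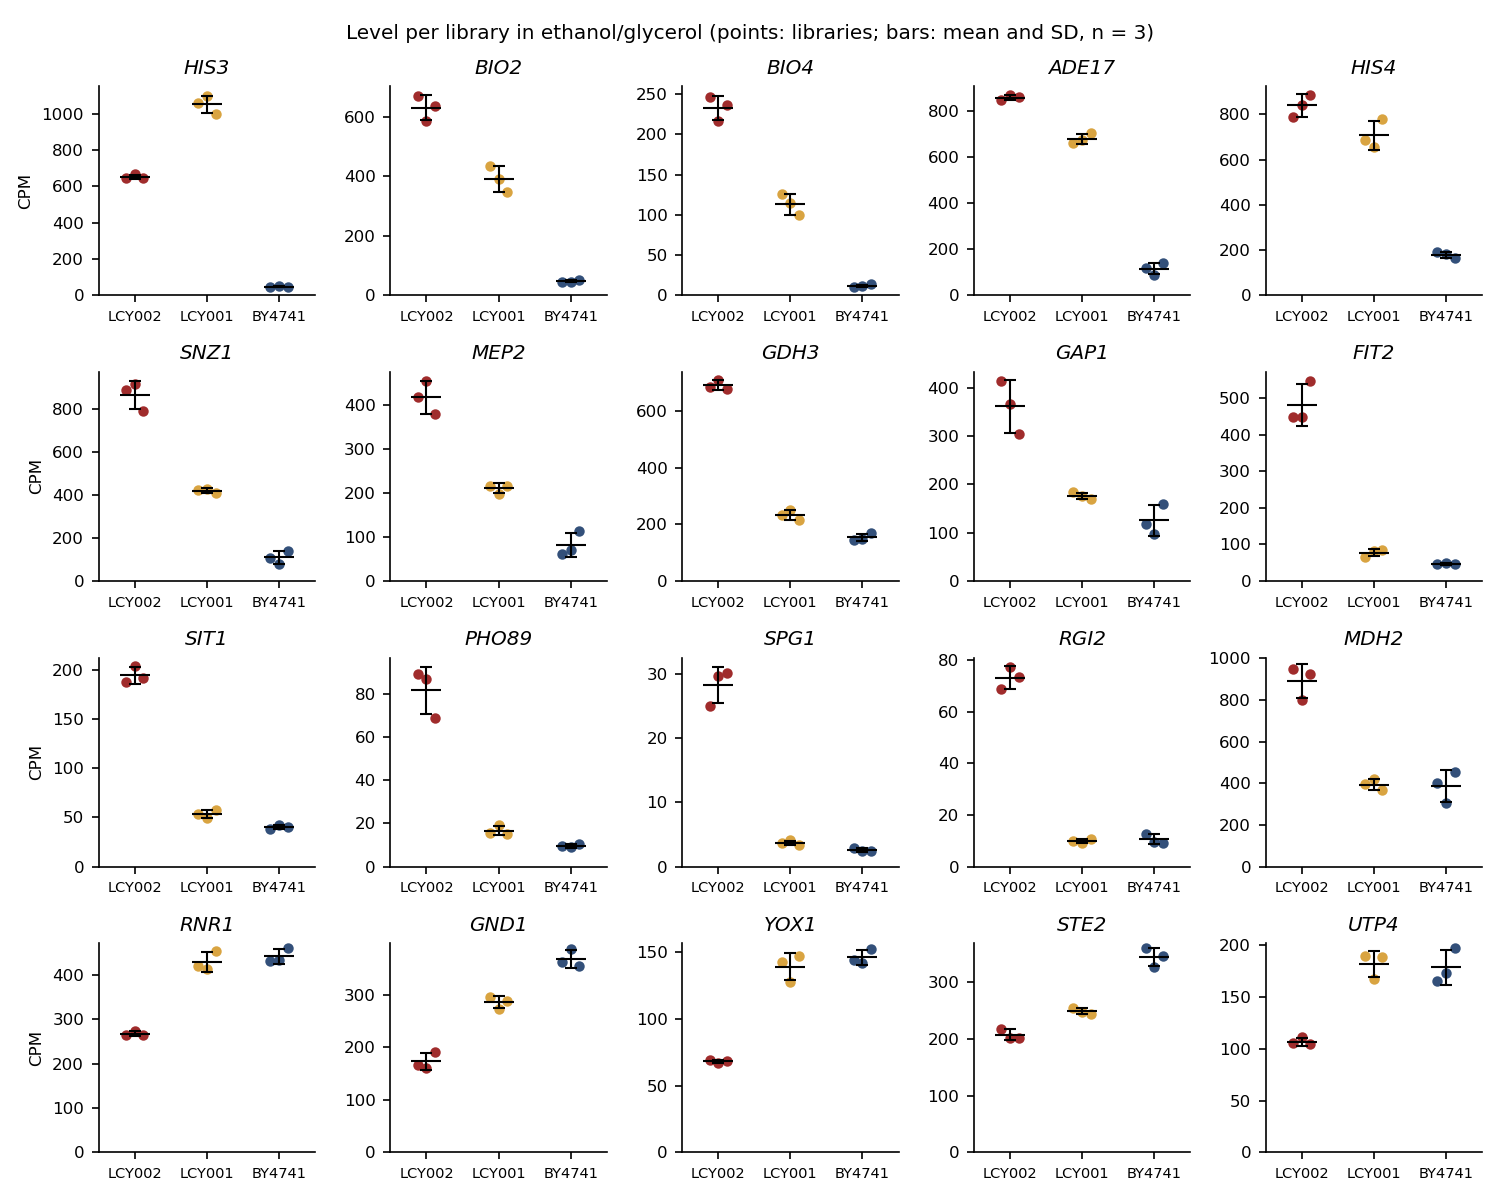
CPM of 20 genes in each library in ethanol/glycerol, with points for libraries and bars for the mean and SD (n = 3 per strain), in the order LCY002, LCY001, BY4741. BIO2, ADE17 and HIS4 are high in both plasmid strains, SPG1 and RGI2 stand at 25.0 to 77.5 CPM in LCY002 and at 2.37 to 12.8 CPM in BY4741, and RNR1, GND1 and YOX1 are lowest in LCY002.

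Many histidine and purine synthesis genes were higher in LCY002, and many were higher in LCY001 too. Of 6 histidine genes other than HIS3, 4 rose, HIS6 fell by 0.36 and HIS2 was not called (0.10), where 28.2% of all genes were higher and 31.5% lower. HIS4, which encodes an enzyme of several histidine steps, had 789, 844 and 887 CPM in LCY002 against 189.6, 184 and 163 CPM in BY4741 (log2 fold change 2.23, SE 0.06, adjusted p = 1.49e-20). No library overlapped, and LCY001 stood at 708 ± 64.1 CPM (SD, n = 3), 1.99 above BY4741. HIS5, the aminotransferase gene, rose by 1.36 ± 0.05 in LCY002 and by 0.87 in LCY001. Of the 15 purine genes 10 rose and 4 fell, with a median of 0.78, and in LCY001 11 rose and 0 fell (6.59% and 4.92% of all genes), with a median of 0.79. ADE17, which encodes the enzyme that closes the purine ring, had 844, 866 and 859 CPM in LCY002 against 119, 88.4 and 139 CPM in BY4741 (log2 fold change 2.89, SE 0.12, adjusted p = 1.97e-14; LCY001 2.55). ADE1 rose by 1.62 ± 0.08 and ADE2 by 1.50 ± 0.09. The 4 that fell were IMD2, IMD3 and IMD4 of the guanine branch and ADE16, a close relative of ADE17. The Gcn4 core TGACTC lay before 5 of the 6 histidine and 10 of the 15 purine genes, against 8.26% of all windows.

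The other amino acid lists differed in how many genes were higher, where 28.2% of all genes were. All 9 arginine genes were higher, with a median of 0.41, which was 0.59 without BY4741 replicate 3. ARG1, the argininosuccinate synthetase gene, had 1484, 1589 and 1575 CPM in LCY002 against 814, 809.5 and 806 CPM in BY4741 (log2 fold change 0.94, SE 0.04, adjusted p = 6.79e-16). The lists of lysine and branched chain synthesis had 7 of 8 and 8 of 10 genes higher, with medians of 0.50 and 0.39. The aromatic list had 7 of 13 higher and 2 lower, with a median of 0.14 that was 0.09 without LCY002 replicate 3. Its members with the largest changes were ARO8, an aminotransferase gene, at 0.39 ± 0.04 and ARO7, the chorismate mutase gene, at -0.33 ± 0.08. LYS1, which encodes the last step of lysine synthesis, had 326, 316 and 289.6 CPM in LCY002 against 129, 125 and 115 CPM in BY4741 (1.34 ± 0.05; LCY001 0.54), and LYS12 was not called (-0.07). LEU1, the isopropylmalate isomerase gene, rose by 1.55 ± 0.06, and the direct difference from LCY001 was 0.82. Many genes of these lists were higher in LCY001 than in BY4741 too, where 6.59% of all genes were. They were 7 of 9 arginine, 6 of 8 lysine, 5 of 10 branched chain and 5 of 13 aromatic genes, with 0 lower. The LCY001 medians were 0.29, 0.23, 0.14 and 0.11. Set against LCY001 directly, LCY002 had 5, 6, 7 and 3 genes higher and 0, 1, 2 and 2 lower (29.4% and 30.4% of all genes). Every arginine window, 8 of 10 branched chain windows and 3 of 8 lysine windows hold TGACTC. GCN4 itself, the activator gene, had 1391, 1409 and 1434 CPM in LCY002 against 1208, 1262 and 1248 CPM in BY4741, a difference of 0.19 ± 0.04 (adjusted p = 0.000684). Its direct difference from LCY001 was 0.07 and was not called. SNZ1 and SNO1, a gene pair of pyridoxine synthesis, rose by 2.97 ± 0.12 and 2.17 ± 0.08, and they led a list of thiamine and pyridoxine genes in which 13 of 16 genes were higher, some of them near-identical copies with uncertain counts. In LCY001 SNZ1 was 1.93 above BY4741, and 2 of these 16 genes were called higher and 0 lower (6.59% and 4.92% of all genes), with a median of 0.12.

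Of 11 genes of ammonium uptake and glutamate and glutamine metabolism 10 were higher, where 28.2% of all genes were, with a median of 0.75. MEP2, the high-affinity ammonium permease gene, had 418, 454 and 378 CPM in LCY002 against 61.9, 70.1 and 113 CPM in BY4741 (log2 fold change 2.35, SE 0.14, adjusted p = 1.75e-11). GDH3, a glutamate dehydrogenase gene, had 684, 709.5 and 678 CPM in LCY002 against 146, 146 and 169 CPM in BY4741 (log2 fold change 2.17, SE 0.06, adjusted p = 1.37e-20). DAL80, the GATA repressor gene, was low in both strains, with 11.2, 12.2 and 13.1 CPM in LCY002 against 2.16, 2.75 and 3.31 CPM in BY4741 (2.15 ± 0.16). For all 3 genes each LCY002 library exceeded each BY4741 library with a wide gap. In LCY001 8 of the 11 were higher than in BY4741 (6.59% of all genes), MEP2 by 1.36 and GDH3 by 0.60, and the direct comparison placed 10 of 11 higher and 1 lower in LCY002 than in LCY001 (29.4% and 30.4% of all genes), GDH3 by 1.56. GAP1, the general amino acid permease gene, had 414, 365 and 304 CPM in LCY002 against 118, 97.4 and 159.5 CPM in BY4741 (1.53 ± 0.13). Its list of 15 amino acid permeases had 8 higher and 4 lower, against 28.2% and 31.5% of all genes. LCY001 had 8 of these permease genes higher than BY4741 and 1 lower, against 6.59% and 4.92% of all genes. Set directly against LCY001, LCY002 had 8 higher and 6 lower (29.4% and 30.4% of all genes). The GATA element lay before 7 of the 11 nitrogen genes, against 14.5% of all windows. SUL1, a sulfate permease gene, was higher too, by 1.86 ± 0.07 (LCY001 0.97), in a list of sulfur genes with 11 of 19 higher and 5 lower. LCY001 had 9 of these 19 higher than BY4741 and 1 lower (6.59% and 4.92% of all genes). LCY002 against LCY001 had 8 higher and 4 lower (29.4% and 30.4% of all genes).

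Iron uptake genes were higher in LCY002. Of 14 genes 10 were higher and 0 lower, with a median of 0.70, against 28.2% and 31.5% of all genes. In LCY001 3 were higher, where 6.59% of all genes were, with a median of 0.04. FIT2 had 449, 449 and 548 CPM in LCY002 against 45.1, 49.5 and 45.5 CPM in BY4741 (log2 fold change 3.37, SE 0.17, adjusted p = 1.44e-12), and LCY001 lay between them at 77.2 ± 10.2 CPM (SD, n = 3). SIT1, a siderophore transporter gene, had 188, 204 and 191 CPM in LCY002 against 37.8, 42.4 and 40.4 CPM in BY4741 (log2 fold change 2.27, SE 0.27, adjusted p = 8.65e-07). FIT3 and ARN2, of the same system, rose by 1.52 ± 0.12 and 1.39 ± 0.09. Against LCY001 10 of the 14 genes were higher in LCY002 (29.4% of all genes), FIT2 by 2.64 and SIT1 by 1.86. The Aft1 core lay before 10 of the 14 genes, against 1.43% of all windows. Of 13 phosphate genes 9 were higher (28.2% of all genes). PHO89, the sodium phosphate symporter gene, had 89.1, 86.8 and 69.0 CPM in LCY002 against 9.51, 8.88 and 10.4 CPM in BY4741 (log2 fold change 3.09, SE 0.16, adjusted p = 9.32e-14; LCY001 0.80). PHO8, the vacuolar phosphatase gene, rose by 0.80 ± 0.04. Heme synthesis went the other way, with 5 of 8 genes lower (31.5% of all genes) and 1 higher, or 0 to 2 higher when 1 library was left out, led by HEM12 (-0.41 ± 0.04) and HEM13 (-0.37 ± 0.05).

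Of the lists for growth without sugar, that of gluconeogenesis and the glyoxylate cycle had 12 of 13 genes higher, where 28.2% of all genes were, with a median of 0.52. PCK1, the phosphoenolpyruvate carboxykinase gene, had 3060, 3023 and 3256 CPM in LCY002 against 1738, 1582 and 1597 CPM in BY4741 (log2 fold change 0.93, SE 0.07, adjusted p = 5.62e-12). MDH2, the cytosolic malate dehydrogenase gene, had 949.8, 801 and 923 CPM in LCY002 against 403, 305 and 454 CPM in BY4741 (log2 fold change 1.20, SE 0.10, adjusted p = 3.67e-10). REG2, a phosphatase regulator gene, rose by 1.07 ± 0.06. In LCY001 2 of the 13 were higher and 1 lower (6.59% and 4.92% of all genes), and against LCY001 11 of 13 were higher in LCY002 (29.4% of all genes). The list of ethanol and acetate use had 8 of 13 higher and 1 lower. LCY001 had 5 of the 13 higher than BY4741 and 1 lower (6.59% and 4.92% of all genes). Set directly against LCY001, LCY002 had 8 higher and 1 lower (29.4% and 30.4% of all genes). ADY2, an acetate transporter gene, had 38.9, 37.9 and 42.1 CPM in LCY002 against 13.1, 9.81 and 7.68 CPM in BY4741 (1.96 ± 0.12), and CRC1, the carnitine carrier gene, had 198, 223 and 205 CPM in LCY002 against 99.5, 84.6 and 74.8 CPM in BY4741 (1.27 ± 0.07). The acetyl-carnitine enzyme genes YAT1 and YAT2 rose by 0.89 ± 0.06 and 0.91 ± 0.08. ADY2, CRC1, YAT1 and YAT2 were also called higher in LCY001 than in BY4741, by 0.40, 0.46, 0.41 and 0.34. The call of ALD5 in that list rests on 31.9, 24.2 and 0 CPM in LCY002 against 0 CPM in all 3 BY4741 libraries. ALD5 is therefore uncertain, but the list median is 0.47 also with ALD5 at its counting bound. Fatty acid oxidation genes were higher in 10 of 14 cases, led by the thiolase gene POT1 (1.14 ± 0.09), and PEX11, at 0 CPM in LCY002 and 1.73 to 3.44 CPM in BY4741, is uncertain. Of 10 glycerol genes 1 was higher and 2 were lower (28.2% and 31.5% of all genes), with a median of 0.05. GUT1, the glycerol kinase gene, was higher by 0.21 ± 0.06, GPD2, a glycerol phosphate dehydrogenase gene, was lower (-0.13 ± 0.04), and the third call, of DAK1, was lower too. Without BY4741 replicate 1, 3 were higher and 3 lower, and without BY4741 replicate 3, 1 was higher and 1 lower, with a median of 0.01. With 1 other library left out, 1 to 2 were higher and 1 to 3 lower.

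Of 5 genes of respiratory growth and stationary phase 4 were higher, where 28.2% of all genes were. In LCY001 2 of them were higher than in BY4741 (6.59% of all genes), with a median of -0.01. Against LCY001 4 were higher in LCY002 (29.4% of all genes). SPG1, a gene required for survival in stationary phase, had 25.0, 29.7 and 30.2 CPM in LCY002 against 2.96, 2.44 and 2.37 CPM in BY4741 (log2 fold change 3.44, SE 0.13, adjusted p = 7.36e-18). RGI2, a respiratory growth gene, had 68.7, 77.5 and 73.4 CPM in LCY002 against 12.8, 9.63 and 9.30 CPM in BY4741 (log2 fold change 2.79, SE 0.14, adjusted p = 1.48e-14; LCY001 -0.10). SPG4, another stationary phase gene, rose by 2.48 ± 0.14. Every LCY002 library lay above every BY4741 library for these 3 genes. RGI1, the gene most like RGI2, had 262, 271 and 347 CPM in LCY002 against 258, 257 and 216 CPM in BY4741 and was not called (0.27 ± 0.32). Of 33 respiratory chain and ATP synthase genes 12 were higher and 0 lower, against 28.2% and 31.5% of all genes, with a median of 0.10, which was 0.03 with total counts as the scale. The members with the largest rises were NDE2, an external NADH dehydrogenase gene, with 224, 223 and 222 CPM in LCY002 against 113, 89.5 and 96.1 CPM in BY4741 (1.17 ± 0.08), and CYC7, the minor cytochrome c gene (1.01 ± 0.15). Of 16 tricarboxylic acid cycle genes 5 were higher and 3 lower, the first near the share of all genes, with a median of 0.01. Without BY4741 replicate 3, and equally with total counts as the scale, 3 were higher and 5 lower, with a median of -0.06, and the median was -0.03 to 0.04 without any other library. Hexose transporter genes were higher in 12 of 14 cases, against 28.2% of all genes, several of them uncertain because they share reads with relatives. HXT5, a transporter gene of slow growth, had 405, 406 and 396 CPM in LCY002 against 152, 111 and 156 CPM in BY4741 (log2 fold change 1.53, SE 0.08, adjusted p = 3.74e-13), and HXT10 rose by 1.52 ± 0.17.

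Lists of storage carbohydrates and autophagy are read against 28.2% of all genes higher and 31.5% lower. Of 12 glycogen genes 7 were higher and 1 lower (median 0.35), and of 7 trehalose genes 5 were higher (median 0.41). TPS2, the trehalose phosphatase gene, had 552, 509.6 and 569 CPM in LCY002 against 338, 270.4 and 329 CPM in BY4741 (log2 fold change 0.80, SE 0.09, adjusted p = 2.44e-08). SGA1, a glucoamylase gene, rose by 0.97 ± 0.10 and GSY1, a glycogen synthase gene, by 0.85 ± 0.15. In LCY001 0 genes of either list were called higher than in BY4741, and 2 glycogen genes were lower, against 6.59% and 4.92% of all genes. Autophagy genes were higher in 26 of 37 cases and lower in 1, with a median of 0.35. ATG1, the initiating kinase gene, had 119.7, 117 and 121 CPM in LCY002 against 53.3, 52.6 and 47.5 CPM in BY4741 (log2 fold change 1.22, SE 0.06, adjusted p = 1.7e-15). ATG39, a receptor gene for the nuclear envelope, rose by 1.32 ± 0.09 and ATG8, whose product coats the forming autophagosome, by 0.88 ± 0.06. In LCY001 3 of the 37 were higher and 3 lower, near the 6.59% and 4.92% of all genes. SSA3, a stress-induced chaperone gene, had 222, 232 and 193 CPM in LCY002 against 74.1, 62.3 and 77.7 CPM in BY4741 (log2 fold change 1.59, SE 0.07, adjusted p = 1.23e-16), in a heat shock list with 7 of 20 higher, near the share of all genes, and 5 lower, or 3 lower without LCY002 replicate 2. Of the 7 meiosis and sporulation genes, a diploid programme, 4 were higher and 1 lower. IME2, the meiotic kinase gene, had 30.7, 26.4 and 22.2 CPM in LCY002 against 14.6, 8.94 and 11.7 CPM in BY4741 (1.17 ± 0.14), and the list summed to 154 to 163 CPM in LCY002 and 105 to 113 CPM in BY4741.

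**Figure D3:**
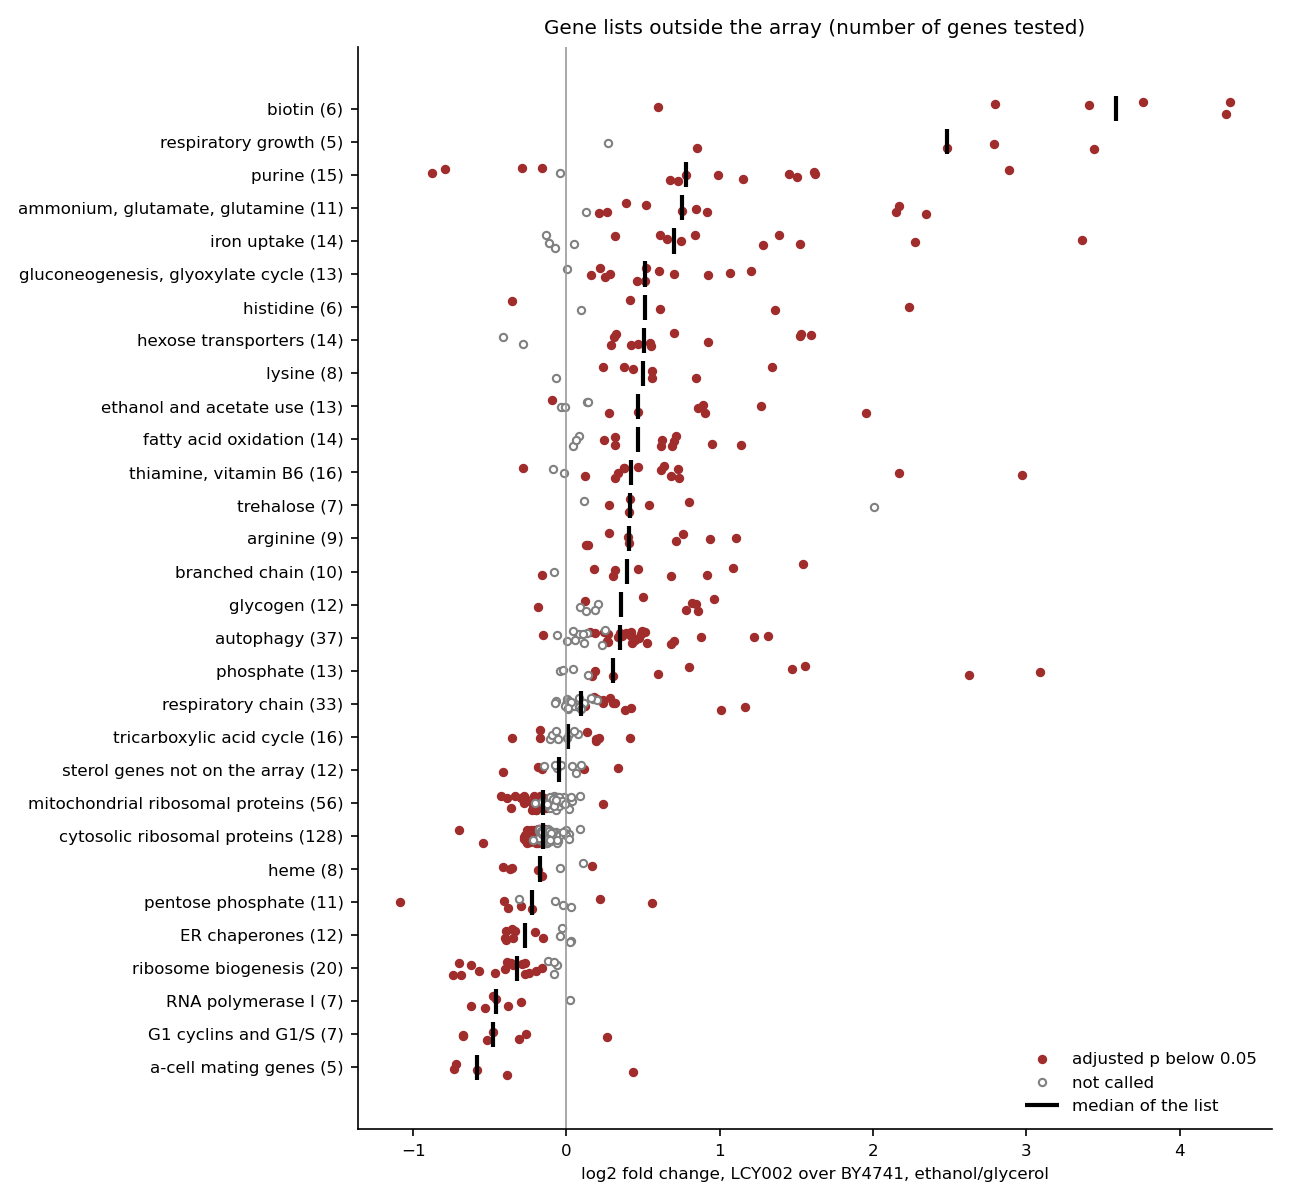
Log2 fold change, LCY002 over BY4741 in ethanol/glycerol, of the members of 30 gene lists outside the array, with called genes filled, other genes open and the list median as a bar. The biotin median lies farthest right, at 3.59, and the a-cell median farthest left, at -0.58. ALD5 and PEX11, with 1 strain at 0 CPM, are not drawn.

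Genes for making ribosomes were lower in LCY002. Of 20 ribosome biogenesis genes 16 were lower and 0 higher (31.5% of all genes were lower), with a median of -0.32, which was -0.18 without BY4741 replicate 3, and 10 were lower with a replicate block. UTP4, of the small subunit processome, had 105, 111 and 104 CPM in LCY002 against 166, 173 and 197 CPM in BY4741 (log2 fold change -0.74, SE 0.07, adjusted p = 4.79e-10). SSF1, of the large subunit, had 69.8, 77.7 and 58.2 CPM in LCY002 against 107, 104 and 123 CPM in BY4741 (log2 fold change -0.70, SE 0.10, adjusted p = 2.48e-06). Of the 7 RNA polymerase I genes 6 were lower, with a median of -0.46, among them RPA135, for a large subunit of the enzyme, with 270.1, 259 and 248 CPM in LCY002 against 350.4, 343 and 391 CPM in BY4741 (-0.48 ± 0.06). In each of these 3 genes the lowest BY4741 library lay above the highest LCY002 library, and BY4741 replicate 3 was the highest of all. In LCY001 3 biogenesis genes and 2 polymerase genes were higher than in BY4741 and 0 lower, where 6.59% of all genes were higher and 4.92% lower. All 20 biogenesis genes were lower in LCY002 than in LCY001, where 30.4% of all genes were. Cytosolic ribosomal protein genes were lower in 66 of 128 cases, with a median of -0.15. Without BY4741 replicate 3 they were lower in 37 cases, with a median of -0.09, and with total counts as the scale in 103. Of 56 mitochondrial ribosomal protein genes 29 were lower and 1 higher, with a median of -0.15. The PAC core lay before 19 of 20 biogenesis genes and 6 of 7 polymerase genes, against 19.6% of all windows.

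Of 7 G1 cyclin and G1/S genes 6 were lower, where 31.5% of all genes were, and CLN3 was higher (0.26). CLB5, an S-phase cyclin gene, had 29.7, 31.7 and 26.6 CPM in LCY002 against 43.8, 48.3 and 48.6 CPM in BY4741 (-0.68 ± 0.07), and CLN1, a G1 cyclin gene, had 267, 275 and 294 CPM in LCY002 against 359.9, 445 and 395 CPM in BY4741 (-0.52 ± 0.07). YOX1, which encodes a repressor of cell cycle genes, had 68.8, 67.1 and 68.0 CPM in LCY002 against 144, 142 and 152 CPM in BY4741 (log2 fold change -1.10, SE 0.09, adjusted p = 2.09e-10). MCD1, a cohesin gene, averaged 62.8 ± 1.30 CPM in LCY002 and 129.9 ± 2.64 CPM in BY4741 (SD, n = 3 each), a change of -1.05 ± 0.06 (SE, adjusted p = 9.94e-15). All 4 were lower in every LCY002 library, and YOX1 and MCD1 differed by -0.07 and 0.01 between LCY001 and BY4741, both not called. RNR1, the large subunit gene of ribonucleotide reductase, was lower (-0.72 ± 0.06), while its damage-induced relative RNR3 was higher (1.43 ± 0.11). The largest fall outside the array that met the naming rule was SFG1, a transcription factor gene, with 49.5, 53.1 and 54.8 CPM in LCY002 against 135, 122 and 104 CPM in BY4741 (log2 fold change -1.20, SE 0.11, adjusted p = 1.06e-08). GND1, the phosphogluconate dehydrogenase gene of the pentose phosphate pathway, had 167, 161 and 192 CPM in LCY002 against 363, 387 and 355 CPM in BY4741 (log2 fold change -1.09, SE 0.07, adjusted p = 4.73e-13). The transketolase gene TKL1 and the transaldolase gene TAL1 of that pathway fell by 0.41 and 0.38 on the log2 scale, and 5 of its 11 genes were lower and 2 higher, against 31.5% and 28.2% of all genes. Chaperone genes of the endoplasmic reticulum were lower in 8 of 12 cases (31.5% of all genes), and KAR2, for the main chaperone there, fell by 0.40 ± 0.04 on the log2 scale.

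The strain difference in ethanol/glycerol was also set against that in the other carbon sources, with 3 libraries per strain in each, as a difference of differences. Relative to glucose it changed at 39.5% of all genes, 18.1% upward and 21.5% downward, and relative to galactose at 44.7%, 19.5% upward and 25.2% downward. Among array genes the difference was higher than in glucose at 14 and lower at 9, and higher than in galactose at 21 and lower at 9. In the galactose module it was higher than in galactose at 8 of 9 genes, with a median of 1.23 over the 9, and GAL80 differed by 1.51 ± 0.06. ERG7 had a higher difference than on either sugar, by 1.56 ± 0.06 relative to glucose and 1.41 ± 0.06 relative to galactose. For biotin all 6 genes had a higher difference than on either sugar, BIO2 by 4.22 and 3.83. For iron uptake it was higher than in glucose at 9 of 14 genes and lower at 2, and higher than in galactose at 10 and lower at 1, FIT2 differing by 2.86 and 3.26. Of 33 respiratory chain genes 24 had a higher difference than in glucose, 30 a higher one than in galactose, and 0 a lower one. Arginine, lysine and histidine genes had negative median differences of differences, at -1.46, -0.74 and -0.59 relative to glucose. Most of these genes were still higher in LCY002 than in BY4741 in ethanol/glycerol. All 9 arginine genes had a lower difference in ethanol/glycerol than on either sugar, ARG1 by -2.74 ± 0.06 relative to glucose. Of the 8 lysine genes 7 did so, LYS1 by -1.95 relative to glucose, and HIS5 differed by -1.24 ± 0.07 relative to glucose. For ribosome biogenesis the difference was lower than in glucose at 8 of 20 genes and lower than in galactose at 11, and higher at 0.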

How the data were processed

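Messenger RNA selected with oligo(dT) was sequenced, and the authors deposited RSEM expected counts and TPM per gene for each library. The submitters' processing notes name build R64 and the tools RSEM 1.2.8, HISAT2 2.1.0 and Bowtie2 2.2.5, so these are given per the submitters' processing notes. The sources used here do not give whether strand was kept. The files hold 5995 genes, of which 5980 matched the R64 annotation and 15 did not (0.0305 to 0.0332% of counts in the 6 libraries). Expected counts were rounded to whole numbers. The test was the edgeR 4.0.16 quasi-likelihood F test (R 4.3.3, robust, TMM, filterByExpr, 1 mean per group, all 27 libraries), with Benjamini-Hochberg adjustment over 5692 genes and calls at an adjusted p below 0.05. The biological coefficient of variation was 0.0527. SEs derive from the F test and 95% intervals from the t distribution. Levels are CPM scaled by TMM, or the deposited TPM where genes are compared. P-values measure the spread between libraries of individual colonies.

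On simulated counts for these groups the fit recovered 78% of genes changed by 1.25 fold and 100% of those changed by 1.5, 2 or 4 fold, and called 5 of 5495 unchanged genes among 5695 tested. Only 200 genes were changed there, none of them with low counts. Recovery was not simulated for low-count genes or with most genes changed. Labels state no pairing. The deviations of same-numbered LCY002 and BY4741 libraries correlated at -0.14, 0.04 and -0.17, so no block was used. Alternatives were DESeq2 1.42.0, total counts or RLE as the scale, TMM computed without the array genes, all genes with no filter, the 6 libraries alone, a replicate block, each replicate left out, and for shares TPM.

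Uncertain genes number 698: those with (131) or within reach of (198) a transcript added by the submitters, overlapping another gene (255), with shared reads in at least 3 of the 6 libraries (361), or with replicates over 3 fold apart at 5 CPM or more (4). Genes named are the 40 array genes, the 4 markers, the 15 largest called rises and falls outside the array, and up to 4 called and 2 uncalled members per list. Called genes had to reach a mean of 5 CPM in the higher group, not overlap between strains and not be uncertain. HIS6, IMD3, IMD4, ADE16, BPL1, CLN3, BAR1, MFA1, MFA2, ALD5, PEX11, PTH1, MIM2, DAK1 and YCL042W were named after their values were seen. The members and all lists were chosen with earlier results of these data known, and the GATA and Aft1 elements after the values had been seen. The mitochondrial genome list had 0 of 8 genes in the files. No set test was run, and reads of the plasmid backbone were not analysed here.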

Additional observations from a re-analysis of the deposited data

Results flagged for a closer look

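Some strain differences turned their sign with the carbon source. TDA6 was lower in LCY002 than in BY4741 in ethanol/glycerol (log2 fold change -0.91) and higher in galactose (1.32), a difference of -2.23 ± 0.34 (SE, adjusted p = 2.84e-05). GSY1, a glycogen synthase gene, was higher in ethanol/glycerol (0.85) and lower in glucose (-0.78) and galactose (-0.60), differences of 1.63 ± 0.21 (adjusted p = 5.29e-06) and 1.45 ± 0.21 (adjusted p = 1.26e-05). HSP30, a membrane heat shock gene, was higher in ethanol/glycerol (0.82) and lower in glucose (-0.73), a difference of 1.55 ± 0.30 (adjusted p = 0.000405). SPS4, a sporulation gene, was lower in ethanol/glycerol (-0.59) and higher in glucose (0.69), a difference of -1.28 ± 0.25 (adjusted p = 0.000174). Among the 40 array genes 23 had a strain difference that differed between ethanol/glycerol and glucose, by the same edgeR interaction test. Between ethanol/glycerol and galactose 30 did so. The shares over all genes were 39.5% and 44.7%. With 3 libraries in each group no single library was tested as an outlier.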

How the results depend on the processing

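Over all alternatives 1261 to 1641 genes were called higher and 1268 to 2358 lower, both within 1.5 times of 1604 and 1793. Array genes were called higher in 39 cases and lower in 0 under each. With total counts as the scale the median of the array genes was 1.186 in place of 1.252, the median of all genes was -0.087 in place of -0.02, and CDC19 turned to -0.002 (adjusted p = 0.971). As a share of TPM the array difference was 3.26 percentage points in place of 3.707 of counts. Leaving out 1 replicate gave 1498 to 1545 genes higher, 1648 to 1751 lower, 39 array genes higher and 0 lower, an array median of 1.232 to 1.269, a share difference of 3.529 to 3.808 points and 0.009 to 0.1 for CDC19. With the 6 libraries and a replicate block 1441 genes were higher and 1268 lower, and 2671 of the 3397 calls were shared, but the numbers do not pair the samples. With the 6 libraries and no block the counts were 1588 and 1470. DESeq2 called 1600 higher and 1747 lower. Cytosolic ribosomal protein genes were lower in 66 cases, in 33 with the block, in 39 with the 6 libraries and in 37 to 88 when a replicate was left out. The 1 lower gene of ethanol and acetate use was not called without BY4741 replicate 1 or 3, without LCY002 replicate 2 or 3, with RLE, with TMM without the array genes, or with the 6 libraries. Of 248 named called genes 0 to 6 lost their call under an alternative and 0 reversed. HIS2, not called, passed the threshold under RLE, under TMM without the array genes, and without BY4741 replicate 1 or LCY002 replicate 1, and LYS12 did so with total counts. Depth sets a limit of 3 counts, 0.197 to 0.207 CPM, and the design allows no exact p below 0.1.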

Other observations

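Some genes outside these groups showed large rises in LCY002. YJR154W had 136, 122 and 129 CPM in LCY002 against 11.4, 14.6 and 14.3 CPM in BY4741 (log2 fold change 3.26, SE 0.16, adjusted p = 2.64e-13; LCY001 2.28). AAD10, a putative aryl alcohol dehydrogenase gene, had 247, 232 and 209 CPM in LCY002 against 34.8, 34.7 and 36.4 CPM in BY4741 (log2 fold change 2.70, SE 0.16, adjusted p = 3.15e-11; LCY001 1.68). BOP2 had 184, 192 and 192 CPM in LCY002 against 32.4, 30.4 and 30.8 CPM in BY4741 (log2 fold change 2.60, SE 0.10, adjusted p = 6.67e-17; LCY001 0.62). For these 3 genes no LCY002 library overlapped a BY4741 library, and LCY001 lay between the strains. Among falls, NDJ1, a meiotic telomere gene, had 11.5, 10.0 and 10.6 CPM in LCY002 against 27.7, 22.2 and 19.9 CPM in BY4741 (log2 fold change -1.12, SE 0.11, adjusted p = 3.01e-09), and PCL2, a cyclin gene, had 71.1, 71.4 and 69.9 CPM in LCY002 against 144, 143 and 151 CPM in BY4741 (log2 fold change -1.04, SE 0.06, adjusted p = 2.99e-14). PDC6, a minor pyruvate decarboxylase gene, was higher by 1.29 ± 0.12 and PIR5, a cell wall gene, by 1.79 ± 0.11. ZRT1, the high-affinity zinc transporter gene, had 42.6, 39.4 and 32.0 CPM in LCY002 against 18.0, 17.6 and 18.2 CPM in BY4741 (log2 fold change 1.08, SE 0.11, adjusted p = 1.56e-08), and its regulator gene ZAP1 rose by 0.71 ± 0.07. CTR1, the copper transporter gene, was lower in LCY002 (-0.46 ± 0.06) and in LCY001 (-0.51). INO1, the inositol synthesis gene, had 779, 607 and 719.7 CPM in LCY002 against 529.9, 498 and 502 CPM in BY4741 (0.46 ± 0.13) but was lower in LCY001 (-0.66), and LCY002 exceeded LCY001 by 1.12. RPN4, the activator gene of the proteasome, had 392, 343 and 344 CPM in LCY002 against 212, 181 and 215 CPM in BY4741 (log2 fold change 0.83, SE 0.06, adjusted p = 1.71e-12), while 8 of the 34 genes of its list were higher and 1 lower, no more than the 28.2% and 31.5% of all genes, with a median of 0.002, or 3 higher and 13 lower with a median of -0.065 with total counts as the scale. Without BY4741 replicate 2 or LCY002 replicate 1 the list had 4 higher, and without LCY002 replicate 2 it had 5.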
